A study of Rattus norvegicus with 192 samples.

Results

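The genes described here mark the 2 main fast transmitter systems of the hypothalamus. They are 5 genes chosen by name: Gad1, Gad2 and Slc32a1 for GABA, and Slc17a6 and Slc17a7 for glutamate, out of 17483 genes in the deposited count table. All 5 were in the table, and 4 passed the filter on low counts. Slc17a7 did not, because it had 2 counts in all hypothalamus libraries together. The hypothalamus of adult male wild-type rats of the Crl:CD(SD) stock was profiled by 3' bulk RNA barcoding, in which each sample's RNA is tagged at its 3' end with its own barcode before samples are pooled. Rats received 1 of 4 treatments by daily oral gavage for 7 days, from postnatal day 56 to 62: the combination of 8 mg/kg vancomycin and 3 mg/kg PFOS, PFOS alone at 3 mg/kg, vancomycin alone at 8 mg/kg, or the corn oil vehicle. PFOS (perfluorooctane sulfonate) is a persistent fluorinated surfactant, and vancomycin is a glycopeptide antibiotic that is poorly taken up from the gut. Each treatment had 12 libraries, numbered in the labels, and 1 combination library with 1280 counts was left out, which leaves 11 combination, 12 PFOS, 12 vancomycin and 12 vehicle libraries.

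GABA is the main inhibitory transmitter of the brain and is made from glutamate by glutamate decarboxylase. Gad1 encodes the form known as GAD67 and Gad2 the form known as GAD65, which is tied more closely to synaptic vesicles. Slc32a1 encodes VGAT, the transporter that loads GABA and glycine into vesicles. Slc17a6 and Slc17a7 encode VGLUT2 and VGLUT1, which load glutamate into vesicles. VGLUT2 is the form used by most glutamate neurons of the hypothalamus and thalamus, while VGLUT1 is the form of the cerebral cortex and hippocampus. Levels are given as CPM, the counts of a gene per 1000000 counts of its library, and log2 fold changes come from edgeR's quasi-likelihood test on all 47 libraries. A change was called where the Benjamini-Hochberg adjusted p over all 6596 genes tested was under 0.05.

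Total counts ran from 172700 to 1240091 per library and averaged 532574 in combination, 700533 in PFOS, 740349 in vancomycin and 905432 in vehicle libraries. Depth thus moved with treatment, and the fold changes of members and the calls of other genes are set beside a fit with log2 total counts as a covariate. Each treatment also had a plate row to itself, and effects of the row cannot be told apart from those of the treatment. In bulk RNA, fewer cells of a type and less RNA per cell cannot be told apart either. Growth hormone RNA (Gh1), which marks the pituitary, averaged 4510 ± 613 CPM in combination, 4484 ± 452 CPM in PFOS, 4349 ± 502 CPM in vancomycin and 4526 ± 1128 CPM in vehicle libraries (SD). Other pituitary genes were less even. In the same order of groups, Tshb averaged 226 ± 193, 281 ± 160, 193 ± 96.4 and 329 ± 204 CPM. Cga averaged 525 ± 383, 640 ± 345, 450 ± 207 and 676 ± 331 CPM. Group means of Prl ran from 238 to 245 CPM and those of Lhb from 120 to 146 CPM. None of these pituitary genes was called in any comparison. Where 8.14% of all genes tested were called, markers of other cells were lower in combination than in vehicle libraries for 3 of 8 astrocyte genes tested (Aldoc, S100b, Agt), 3 of 8 oligodendrocyte genes (Mobp, Mbp, Cldn11), 1 of 7 microglia genes (C1qb) and 3 of 5 blood cell genes (Hbb, Hbb-b1, Hba-a1), and their part in the results below was not tested. With the depth covariate, 1 astrocyte gene (S100b) and 1 blood cell gene (Hbb-b1) were called, and 0 of the oligodendrocyte and microglia genes. None of the 11 neuron genes tested was called in that comparison, and 1, Map2, was lower in PFOS than in vehicle libraries. Map2 averaged 63.4 ± 28.1 CPM in PFOS and 134 ± 61.1 CPM in vehicle libraries (SD). Its values overlapped, at 28.2 to 119 CPM and 61.3 to 229 CPM. That call came from the fit with all libraries and no covariate, and its value with the covariate is not given here. In PFOS against vehicle, 288 genes (4.37%) were called, and 2 (0.0303%) with the depth covariate.

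One library went against its tissue label. PFOS library 31 held a summed 151.7 CPM for 15 hypothalamus marker genes, while the other 46 libraries held 2596 to 7115 CPM with a median of 4492 CPM. The neuropeptide oxytocin (Oxt) was at 4.86 CPM in it and at 359 to 1794 CPM in the others. Thalamus marker genes summed to 878 CPM in library 31 and to 48.9 to 176 CPM in the others. Of these, Tcf7l2 was at 493 CPM in it and at 37.6 to 129 CPM in the others. Neuron genes were present in library 31, at a summed 14230 CPM, above the 8578 to 13514 CPM of the others. Of the measured members, 3 lay outside the range of the other libraries there. Gad1 was at 11.7 CPM in library 31 and at 52.8 to 181 CPM in the other 46, and Slc32a1 at 2.92 CPM and at 7.01 to 33.9 CPM. Slc17a6 stood at 389 CPM, above the 104 to 216 CPM of the others. Gad2 had 0 counts in library 31, as it did in 1 combination library, and the others reached 26.5 CPM. The results of the members are therefore also given without this library.

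**Figure D1:**
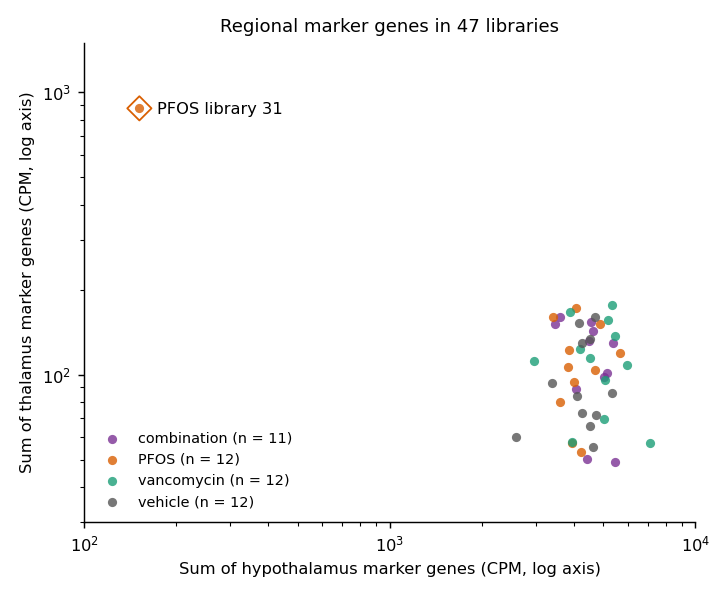
Summed CPM of thalamus marker genes (vertical, log axis) against summed CPM of hypothalamus marker genes (horizontal, log axis), with 1 point for each of 47 libraries coloured by treatment. PFOS library 31, at 151.7 and 878 CPM, lies far from the other 46.

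Across the 4 treatments, the members did not move as 1 block. In edgeR with all 47 libraries and no covariate, Gad2 was the only member called in any comparison: it fell under PFOS, relative to vehicle. Slc32a1 had lower values in every PFOS library than the vehicle mean, Slc17a6 had higher values in every combination library than the vehicle mean, and Gad1 was called in no comparison. The call of Gad2 was lost without library 31 and with the depth covariate. Without library 31, Slc17a6 was called higher in the combination than in vehicle and than in vancomycin libraries. Neither of these calls was made with the depth covariate, whether library 31 was in the fit or not.

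**Figure D2:**
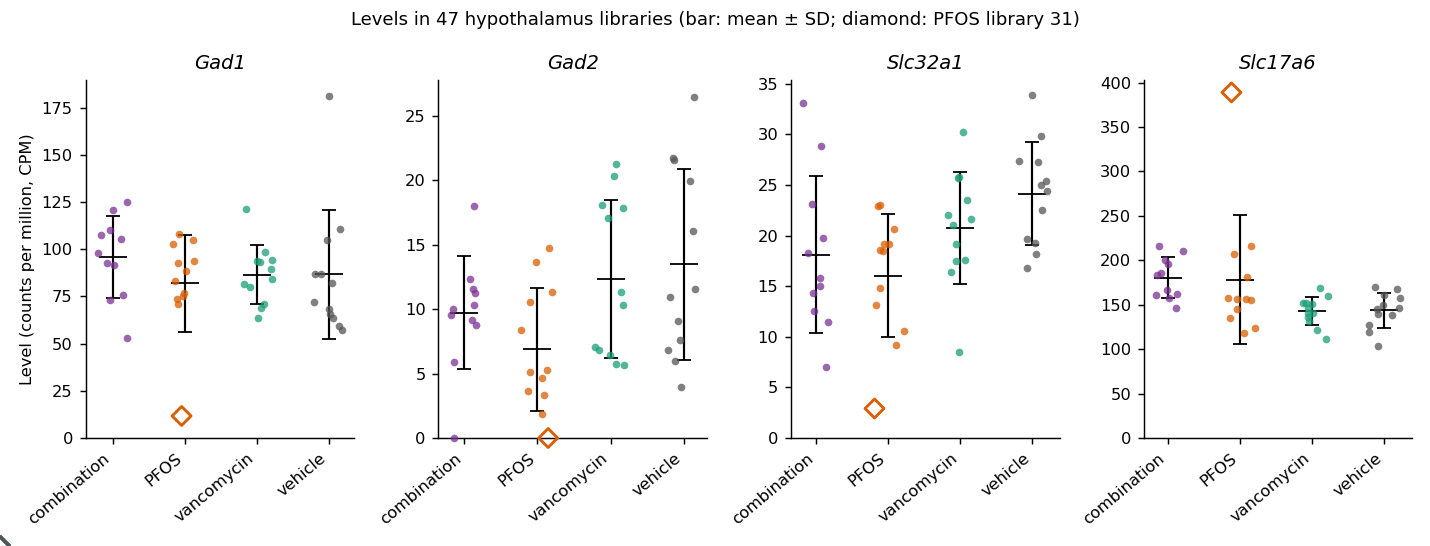
CPM (vertical, from 0) of the 4 measured members in each of 47 libraries by treatment, with 1 point per library and bars for mean ± SD; the diamond is PFOS library 31. Gad2 and Slc32a1 have their lowest means in PFOS libraries, at 6.89 and 16.1 CPM, while the lowest median of Slc32a1, 15.8 CPM, is that of combination libraries, and Slc17a6 points sit higher in combination libraries, at a mean of 180 CPM, than in vancomycin and vehicle libraries.

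Gad1, the first of the decarboxylase genes, ran from 52.8 CPM through a median of 97.9 CPM to 125 CPM in combination libraries and from 11.7 through 85.9 to 108 CPM in PFOS libraries. It ran from 63.5 through 86.9 to 121 CPM in vancomycin libraries and from 57.2 through 77.0 to 181 CPM in vehicle libraries. All 4 groups overlapped, the lowest value was PFOS library 31, and the highest was vehicle library 11. The means were 95.6 ± 21.7 CPM (SD, n = 11) in combination, 81.9 ± 25.5 CPM in PFOS, 86.6 ± 15.6 CPM in vancomycin and 86.6 ± 34.4 CPM in vehicle libraries (n = 12 each). Neighbours in the order of these means, from the combination down to PFOS, lay within 1 SD of each other. The log2 fold change of Gad1 was -0.08 ± 0.18 for PFOS against vehicle (SE; edgeR adjusted p = 0.845) and 0.13 ± 0.18 for the combination against vehicle (edgeR adjusted p = 0.734). With the covariate these were -0.18 ± 0.18 (edgeR adjusted p = 0.706) and -0.063 ± 0.21 (edgeR adjusted p = 0.937). Without library 31, the PFOS value turned to 0.05 ± 0.13 (edgeR adjusted p = 0.883), and without vehicle library 11 it was 0.04 ± 0.17 (edgeR adjusted p = 0.920). Without library 31 the combination value was 0.14 ± 0.13 (edgeR adjusted p = 0.564).

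Gad2 ran from 0 CPM through a median of 10.1 CPM to 18 CPM in combination libraries and from 0 through 5.20 to 14.8 CPM in PFOS libraries. It ran from 5.67 through 10.8 to 21.2 CPM in vancomycin libraries and from 3.98 through 11.3 to 26.5 CPM in vehicle libraries. The groups overlapped, but 10 of 12 PFOS libraries and 10 of 11 combination libraries were below the vehicle mean, and 5 of 12 vehicle libraries were above the highest PFOS library. The means were 9.73 ± 4.39 CPM in combination, 6.89 ± 4.76 CPM in PFOS, 12.3 ± 6.15 CPM in vancomycin and 13.5 ± 7.43 CPM in vehicle libraries (SD, n = 11, 12, 12 and 12). From vehicle, the highest, through vancomycin and the combination down to PFOS, neighbouring means lay within 1 SD of each other. These levels rest on few counts, with medians per library of 5 counts in combination, 4 in PFOS, 9.5 in vancomycin and 9 in vehicle libraries. Counting error alone would give a coefficient of variation of 47.8% in combination libraries, where 45.1% was observed, and of 29.8% in vehicle libraries, where 55% was observed. It would give 47.7% in PFOS libraries, where 69.1% was observed, and 34.6% in vancomycin libraries, where 49.8% was observed.

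Under PFOS, Gad2 fell by 1.06 on the log2 scale relative to vehicle (SE 0.32, edgeR adjusted p = 0.0406), in a comparison where 288 of 6596 genes (4.37%) were called. With the depth covariate the log2 fold change was -0.66 ± 0.31 (edgeR adjusted p = 0.315), and 2 genes (0.0303%) were called. Without library 31 it was -0.89 ± 0.30 (edgeR adjusted p = 0.0913), where 54 of 6537 genes (0.826%) were called. With both, it was -0.37 ± 0.28 (edgeR adjusted p = 0.770), where 1 gene (0.0153%) was called. The call also fell away when any 1 of 13 libraries was left out, 5 vehicle and 8 PFOS libraries, with adjusted p-values between 0.0555 and 0.112. For the combination against vehicle, the log2 fold change was -0.54 ± 0.32 (edgeR adjusted p = 0.311), it was 0.23 ± 0.35 with the covariate (edgeR adjusted p = 0.846), and it was -0.53 ± 0.30 without library 31 (edgeR adjusted p = 0.262). The combination and PFOS differed by 0.52 ± 0.38 (edgeR adjusted p = 0.771). That difference was 0.89 ± 0.35 with the covariate (edgeR adjusted p = 0.376), 0.36 ± 0.35 without library 31 (edgeR adjusted p = 0.843) and 0.71 ± 0.31 with both (edgeR adjusted p = 0.432). Vancomycin differed from vehicle by -0.15 ± 0.28 (edgeR adjusted p = 0.9996), and by 0.17 ± 0.26 with the covariate (edgeR adjusted p = 0.920).

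The promoter windows of both decarboxylase genes are printed to show that these 2 genes for the same reaction have different sequence around their annotated starts. They cover 250 bases before and 50 after the annotated start, from RefSeq on GRCr8, a later assembly than the rn6 listed for the deposited counts. All 5 members matched the table by symbol. Capitals mark matches, on either strand, to TATAAA (the letters of the TATA box), to GGGCGG (the GC box) and to CCAAT (the CCAAT box).
Gad1 (GRCr8 chr3:75777202-75777501, plus strand): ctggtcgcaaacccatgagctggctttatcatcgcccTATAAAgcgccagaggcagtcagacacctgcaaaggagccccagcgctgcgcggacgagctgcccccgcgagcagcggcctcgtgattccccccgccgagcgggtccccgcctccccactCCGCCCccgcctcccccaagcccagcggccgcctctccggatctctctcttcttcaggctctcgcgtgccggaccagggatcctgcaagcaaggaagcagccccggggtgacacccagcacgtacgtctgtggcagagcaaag
Gad2 (GRCr8 chr17:89671468-89671767, plus strand): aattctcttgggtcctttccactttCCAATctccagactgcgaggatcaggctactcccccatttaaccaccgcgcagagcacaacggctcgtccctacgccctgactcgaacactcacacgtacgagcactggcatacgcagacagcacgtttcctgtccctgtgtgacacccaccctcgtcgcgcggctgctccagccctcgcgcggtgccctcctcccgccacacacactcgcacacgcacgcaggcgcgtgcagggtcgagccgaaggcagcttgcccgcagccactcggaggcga
The Gad1 window holds 1 TATAAA, 213 bases before the start, and 1 GGGCGG on the opposite strand. The Gad2 window holds 1 CCAAT, and the letters of the other motifs are not in it. Of 33469 rat promoter windows of the same length, 14.2% hold TATAAA, 33.1% hold GGGCGG and 37.5% hold CCAAT, so each match is common, and the counts carry no information on whether a factor binds there.

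Slc32a1, which serves both GABA and glycine neurons, was lowest on average in PFOS libraries. It ran from 7.01 CPM through a median of 15.8 CPM to 33.1 CPM in combination libraries and from 2.92 through 18.5 to 23.1 CPM in PFOS libraries. It ran from 8.50 through 21.3 to 30.2 CPM in vancomycin libraries and from 16.8 through 24.7 to 33.9 CPM in vehicle libraries. All 12 PFOS libraries were below the vehicle mean and 5 were below the lowest vehicle library, while 7 of 12 vehicle libraries were above the highest PFOS library. The means were 18.1 ± 7.71 CPM in combination, 16.1 ± 6.10 CPM in PFOS, 20.8 ± 5.57 CPM in vancomycin and 24.1 ± 5.09 CPM in vehicle libraries (SD), and neighbours in the order of means lay within 1 SD of each other. For PFOS against vehicle the log2 fold change was -0.60 ± 0.19, and the edgeR adjusted p of 0.0539 lay just above the threshold. It was -0.56 ± 0.20 with the covariate (edgeR adjusted p = 0.186), -0.46 ± 0.17 without library 31 (edgeR adjusted p = 0.134) and -0.37 ± 0.18 with both (edgeR adjusted p = 0.593). DESeq2 called it, at -0.61 with an adjusted p of 0.0380. The combination differed from vehicle by -0.45 ± 0.20 (edgeR adjusted p = 0.160), with 6 of 11 combination libraries below the lowest vehicle library. That value was -0.37 ± 0.24 with the covariate (edgeR adjusted p = 0.548), -0.44 ± 0.18 without library 31 (edgeR adjusted p = 0.109) and -0.29 ± 0.21 with both (edgeR adjusted p = 0.610). With the GC content of each library's barcode as a covariate it was -0.19 ± 0.21 (edgeR adjusted p = 0.691). Barcode GC varied only among combination libraries, so that fit in effect set those with the GC of the other groups against vehicle.

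Slc17a6, the glutamate member with counts in every library, had its highest means in the groups that received PFOS. It ran from 147 CPM through a median of 183 CPM to 215 CPM in combination libraries and from 118 through 156 to 389 CPM in PFOS libraries. It ran from 112 through 144 to 169 CPM in vancomycin libraries and from 104 through 146 to 170 CPM in vehicle libraries. All 11 combination libraries were above both the vancomycin and the vehicle mean, and 6 were above the highest vehicle library. PFOS libraries spread more widely, and the 389 CPM of library 31 set their range. The means were 180 ± 23.1 CPM in combination, 178 ± 72.7 CPM in PFOS, 143 ± 16.1 CPM in vancomycin and 144 ± 19.8 CPM in vehicle libraries (SD). The means of the combination and PFOS were close to each other, as were those of vancomycin and vehicle. Without library 31, the PFOS mean was 159 ± 31.1 CPM (n = 11).

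For the combination against vehicle, Slc17a6 had a log2 fold change of 0.29 ± 0.12 (edgeR adjusted p = 0.132), where 537 of 6596 genes (8.14%) were called. Those calls were 198 higher and 339 lower, and scaling by library totals alone turned that split to 359 higher and 261 lower. Without library 31, which enters the shared estimate of the spread, the difference was 0.30 with an SE of 0.088, and Slc17a6 rose in the combination relative to vehicle (edgeR adjusted p = 0.0201), where 583 genes (8.92%) were called. With the depth covariate it was 0.41 ± 0.14 (edgeR adjusted p = 0.166), where 52 genes (0.788%) were called. With both it was 0.31 ± 0.10 (edgeR adjusted p = 0.114), where 50 genes (0.765%) were called. The size lay between 0.29 and 0.41 in these 4 fits, with the call made in 1 of them, and it was 0.19 ± 0.16 when all libraries were thinned to the depth of the shallowest (edgeR adjusted p = 0.545).

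Relative to vancomycin alone, Slc17a6 in the combination had a log2 fold change of 0.30 ± 0.13 (edgeR adjusted p = 0.139), where 516 genes (7.82%) were called. Without library 31 it rose by 0.30 ± 0.089 (edgeR adjusted p = 0.0226), where 559 genes (8.55%) were called. It was 0.37 ± 0.13 with the covariate (edgeR adjusted p = 0.170), where 121 genes (1.83%) were called. It was 0.31 ± 0.093 with both (edgeR adjusted p = 0.0639), where 131 genes (2%) were called. After thinning it was 0.19 ± 0.16 (edgeR adjusted p = 0.523). The combination comparisons share their combination libraries, so they are not independent of each other. PFOS alone against vehicle gave 0.33 ± 0.12 (edgeR adjusted p = 0.0973), and with the covariate it gave 0.38 ± 0.12 (edgeR adjusted p = 0.154). Without library 31 it gave 0.15 ± 0.087 (edgeR adjusted p = 0.363), and with both 0.16 ± 0.090 (edgeR adjusted p = 0.667).

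No member was called for vancomycin alone against vehicle. Slc17a6 differed by -0.0032 on the log2 scale, Slc32a1 by -0.17 ± 0.18, and Gad1 by 0.03 ± 0.18. With the covariate these were 0.04 ± 0.12, -0.14 ± 0.19 and -0.03 ± 0.17, and without library 31 Slc32a1 was at -0.17 ± 0.16 and Gad1 at 0.04 ± 0.13. Of the 6596 genes tested, 0 (0%) were called by edgeR there, 0 with the covariate and 0 by DESeq2, while 184 had an unadjusted edgeR p under 0.05. The combination against PFOS gave no call of a member in any of the 4 fits, with 0 genes called in all and 1 gene (0.0152%) with the covariate. The interaction, which asks whether the PFOS effect was the same with and without vancomycin, was 0.67 ± 0.47 for Gad2, 0.32 ± 0.29 for Slc32a1, 0.18 ± 0.26 for Gad1 and -0.03 ± 0.17 for Slc17a6 (edgeR adjusted p = 0.9999 for each). With the covariate it was 0.72 ± 0.42 for Gad2 and 0.33 ± 0.29 for Slc32a1, and without library 31 it was 0.50 ± 0.43 and 0.19 ± 0.26, with no call of a member in either fit.

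**Figure D3:**
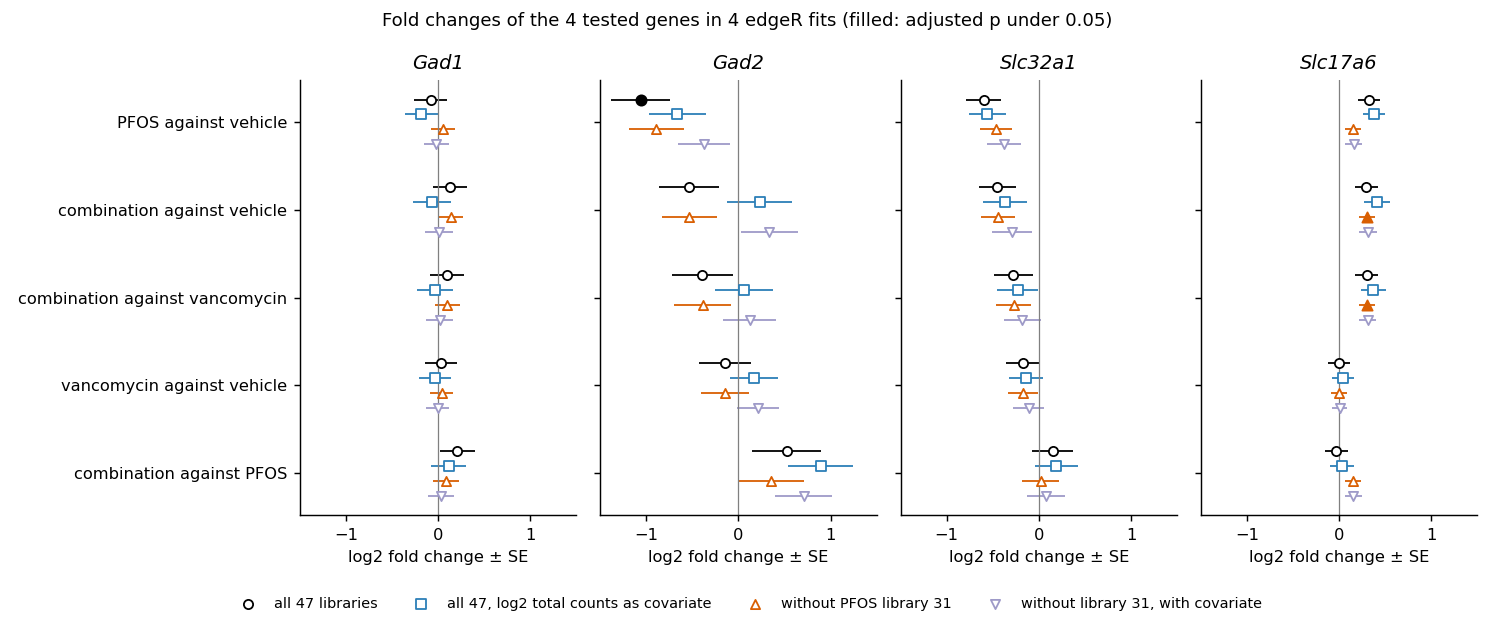
Log2 fold changes with SE (horizontal) of the 4 tested members in 5 comparisons (vertical) from 4 edgeR fits, with filled symbols where the adjusted p was under 0.05. The filled symbols are Gad2 in PFOS against vehicle, at -1.06 with all libraries, and Slc17a6 in the combination against vehicle and against vancomycin, at 0.30 without library 31.

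The promoter window of Slc17a6 is shown for its contrast with those of the decarboxylase genes, as 49% of its bases are G or C, against 67.7% for Gad1 and 63.7% for Gad2. The window of the other glutamate gene, Slc17a7, was at 64.7% and that of Slc32a1 at 73.7%, so the low share was not common to both glutamate genes. The share over all rat promoter windows was not computed. None of the 3 motifs above occurs in the Slc17a6 window, so it has no capitals.
Slc17a6 (GRCr8 chr1:110348197-110348496, plus strand): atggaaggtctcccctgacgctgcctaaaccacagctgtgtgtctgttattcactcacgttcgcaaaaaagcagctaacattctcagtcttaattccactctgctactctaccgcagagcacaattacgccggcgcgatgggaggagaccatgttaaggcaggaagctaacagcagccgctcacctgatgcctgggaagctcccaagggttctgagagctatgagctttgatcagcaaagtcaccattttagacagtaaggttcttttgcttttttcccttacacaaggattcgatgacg

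Slc17a7 was at 0 counts in all 11 combination and all 12 PFOS libraries, which allows a level of up to 0.512 CPM and 0.357 CPM over each group (3 counts of the group's total, counting error only). A single count was found in 1 vancomycin library, at 1.29 CPM, and in 1 vehicle library, at 0.907 CPM. No fold change was computed, since no group was above this floor.

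The balance of members within a library was compared as ratios of counts, which compare libraries and not the levels of different genes. Counts of Slc17a6 per count of Gad1 had medians of 1.90 in combination, 1.91 in PFOS, 1.68 in vancomycin and 2.06 in vehicle libraries. The highest ratio, 33.3, was in library 31, and without it PFOS libraries reached 2.33. The share of Gad2 in the summed counts of both decarboxylase genes had medians of 8.77% in combination, 6.36% in PFOS, 12.5% in vancomycin and 12.5% in vehicle libraries. The ranges of this share overlapped in all groups, with highest values of 19.2% in combination, 14.3% in PFOS, 21.3% in vancomycin and 26.7% in vehicle libraries.

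Pairs of members were also compared within groups. Over the residuals of log2 CPM from the group means in 47 libraries, Gad1 and Slc17a6 had a Pearson r of -0.44, which became 0.18 in the 46 libraries without library 31. Gad1 and Gad2 had r = 0.09 with it and -0.32 without it. Slc32a1 had r = 0.44 with Gad1, 0.41 with Gad2 and -0.48 with Slc17a6, and without library 31 these were 0.05, 0.28 and -0.18. Gad2 and Slc17a6 had r = -0.13 with library 31 and 0.17 without it. Among 4973 genes with a mean of at least 20 CPM, Rack1, which encodes a scaffold protein on the small ribosomal subunit, was one of those whose residuals were most like Gad2 (r = 0.76). Without library 31 this value was 0.74, and with a linear fit on log2 total counts removed it was 0.72. The totals in that fit kept their differences between groups, so depth within groups was only partly removed. The points share library and depth, and Gad2 itself had r = 0.42 with log2 total counts within groups. The genes most like Gad1 were Pld3, Gal and Oxt, at r of 0.79, 0.78 and 0.77, and without library 31 these were 0.50, 0.30 and 0.21. For Slc32a1 they were Ndn, Ahi1 and Psd, at r of 0.63, 0.62 and 0.61 with library 31 and 0.42, 0.38 and 0.55 without it. For Slc17a6 they were Mgst3, Oxr1 and Ndrg4, at r of 0.73, 0.73 and 0.72 with library 31 and 0.56, 0.45 and 0.53 without it.

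Rack1 also differed by treatment. It averaged 633 ± 64.7 CPM in combination, 663 ± 75.3 CPM in PFOS, 823 ± 98.7 CPM in vancomycin and 837 ± 114 CPM in vehicle libraries (SD). Under PFOS, Rack1 fell by 0.35 on the log2 scale relative to vehicle (SE 0.074, edgeR adjusted p = 0.00747), and without library 31 it fell by 0.32 (edgeR adjusted p = 0.0260). With the covariate the value was -0.25 ± 0.064 (edgeR adjusted p = 0.0717). The part of library depth or RNA quality in the shared variation of Gad2 with Rack1 was not tested.

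**Figure D4:**
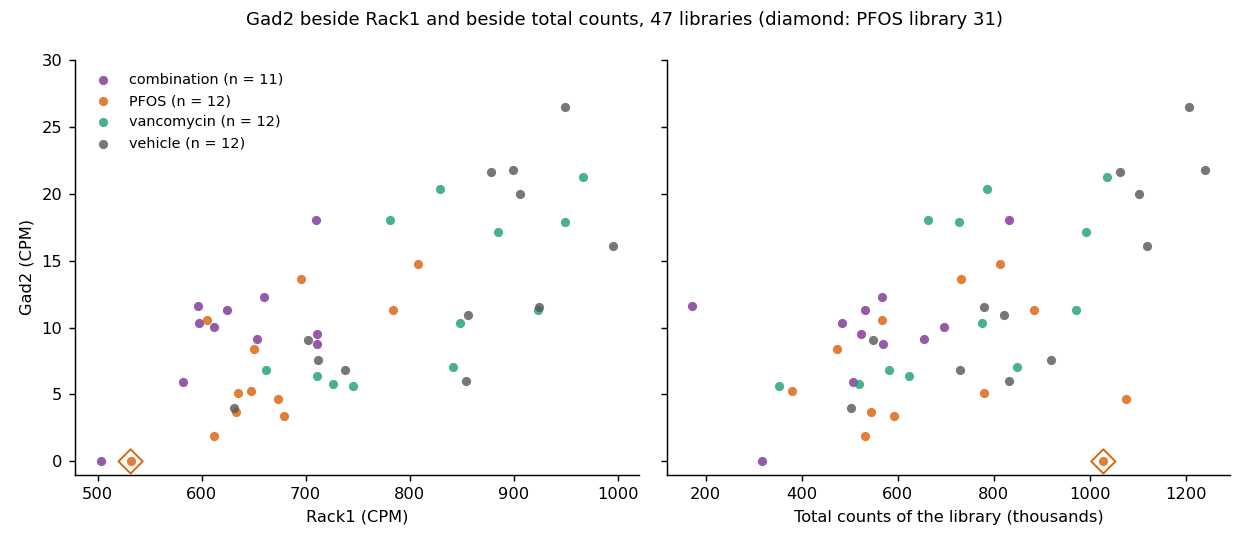
Gad2 in CPM (vertical) against Rack1 in CPM (left) and against the library's total counts (right), with 1 point for each of 47 libraries coloured by treatment; the diamond is PFOS library 31. Libraries with more Rack1 tend to have more Gad2 (r = 0.76 after group means are removed), and vehicle libraries reach the highest totals.

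Of 26 other genes of GABA transmission, listed for uptake, breakdown, receptors and chloride transport, 16 passed the filter. Under PFOS, 0 were higher and 1 of 16 lower than in vehicle, where 4.37% of all genes tested were called, with a median log2 fold change of 0.024 beside 0.0025 over all genes tested. This gene was Gabra2, a GABA-A receptor alpha subunit, which averaged 9.37 ± 5.64 CPM in PFOS and 19.2 ± 9.29 CPM in vehicle libraries (SD, log2 fold change -1.09 ± 0.29, edgeR adjusted p = 0.0246). Gabra2 was also lower in the combination than in vancomycin libraries, where 7.82% of all genes tested were called. It averaged 10.3 ± 5.15 CPM and 19.4 ± 10 CPM there (log2 fold change -0.95 ± 0.31, edgeR adjusted p = 0.0487). With the depth covariate these were -0.76 (edgeR adjusted p = 0.187) and -0.57 (edgeR adjusted p = 0.414). Without library 31 the call was lost under PFOS (edgeR adjusted p = 0.0595) and kept in the combination (-0.94, edgeR adjusted p = 0.0464). The GABA-B receptor subunits Gabbr1 and Gabbr2 were tested and not called in any comparison with vehicle.

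Of 40 genes listed for glutamate transmission, 21 passed the filter. Under PFOS, 0 were higher and 2 of 21 lower than in vehicle, where 4.37% of all genes were called, with a median of 0.0087. In the combination, 0 were higher and 3 of 21 lower than in vehicle, where 8.14% of all genes were called, with a median of -0.011. Slc38a1, a neuronal transporter for glutamine, from which neurons make glutamate and GABA, averaged 23.2 ± 8.24 CPM in combination, 16.1 ± 7.00 CPM in PFOS and 34 ± 10.5 CPM in vehicle libraries (SD). Its highest PFOS library, at 28.3 CPM, lay below the vehicle median of 35.1 CPM. Under PFOS, Slc38a1 fell by 1.15 on the log2 scale relative to vehicle (SE 0.20, edgeR adjusted p = 0.000833), and the call was kept with the covariate (-1.03, edgeR adjusted p = 0.0126) and without library 31 (-1.05, edgeR adjusted p = 0.00413), but not with both (-0.88, edgeR adjusted p = 0.129). In the combination Slc38a1 fell by 0.61 relative to vehicle (edgeR adjusted p = 0.0451), and the value was -0.36 with the covariate (edgeR adjusted p = 0.542) and -0.60 without library 31 (edgeR adjusted p = 0.0372).

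Scaffold genes of excitatory synapses made up the other calls among the glutamate genes. Shank2 averaged 18.8 ± 7.02 CPM in combination, 19.3 ± 5.10 CPM in PFOS and 31.7 ± 8.62 CPM in vehicle libraries (SD). It fell by 0.84 in the combination (edgeR adjusted p = 0.00341) and by 0.74 under PFOS (edgeR adjusted p = 0.0181), relative to vehicle. Shank1 fell by 1.30 in the combination relative to vehicle (edgeR adjusted p = 0.0430). With the depth covariate, Shank2 was at -0.61 in the combination (edgeR adjusted p = 0.194) and -0.63 under PFOS (edgeR adjusted p = 0.111), and Shank1 at -0.087 (edgeR adjusted p = 0.958). All 3 calls were also made without library 31, at -0.84, -0.77 and -1.30 (edgeR adjusted p = 0.00333, 0.0360 and 0.0432). Got1, a cytosolic aminotransferase that makes glutamate, was called with the covariate alone, higher in the combination than in vehicle (0.34, edgeR adjusted p = 0.0131), and was named after its values were seen.

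Of 20 genes listed for synaptic vesicle release, 16 passed the filter, and 2 of them were called in each of these comparisons, where 4.37% of all genes were called under PFOS and 8.14% in the combination. Under PFOS, the vesicle glycoprotein gene Sv2b was higher than in vehicle (0.66 ± 0.20, edgeR adjusted p = 0.0481), and the active zone scaffold gene Pclo was lower (-0.94 ± 0.20, edgeR adjusted p = 0.00747). In the combination, Pclo (-0.64, edgeR adjusted p = 0.0384) and Nsf (-0.67, edgeR adjusted p = 0.0405), whose product takes apart spent SNARE complexes, were lower than in vehicle. The call of Sv2b was lost without library 31 (0.41, edgeR adjusted p = 0.173). Pclo and Nsf were also called without it. With the depth covariate none was called, at 0.82 for Sv2b and -0.71 for Pclo under PFOS, and -0.20 for Pclo and -0.22 for Nsf in the combination (edgeR adjusted p = 0.0717, 0.0857, 0.773 and 0.740).

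Outside the hypothalamus, Slc17a6 was measured in pituitary, and the other members had few counts. Over 48 pituitary libraries, the pooled level was 1.19% of that in hypothalamus for Gad1, 0.912% for Gad2, 1.23% for Slc32a1 and 4.52% for Slc17a6. Pituitary libraries shared a plate with the hypothalamus libraries, and carry-over between these tissues was not tested. Slc17a6 was found in 46 of 48 pituitary libraries, with 202 counts, and averaged 7.29 ± 4.00 CPM in combination, 7.30 ± 3.05 CPM in PFOS, 6.44 ± 4.59 CPM in vancomycin and 9.22 ± 5.81 CPM in vehicle pituitaries (SD, n = 12 each), with overlapping ranges. In 46 thyroid libraries the pooled level was at most 0.830% and in 37 liver libraries at most 0.379% of that in hypothalamus for these 4 genes. Slc17a7 had 0 counts in pituitary, thyroid and liver.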

How the data were processed

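Hypothalamus RNA of 4 treatment groups was measured by 3' bulk RNA barcoding on a NovaSeq instrument, per the labels' protocols. The authors deposited whole-number counts per gene and library, with no sign of a normalization. Per the submitters' processing notes, the tool BWA 0.7.4.4 and the build rn6 are named without their roles; other steps from reads to counts are not given in the sources used here. Libraries were grouped by the labels. The 48 hypothalamus libraries were used where their total reached 100000 counts, which 47 did. Genes were filtered with filterByExpr (minimum count 10), scaled with TMM factors and tested with edgeR 4.0.16 (quasi-likelihood F test, robust dispersion) in R 4.3.3. All 4 groups entered 1 fit, 6 contrasts were drawn, and Benjamini-Hochberg adjustment ran over all genes tested. The SE is the absolute log2 fold change over the root of the F statistic. The labels do not say that each library is a separate animal, and otherwise p-values measure only the spread between libraries, which may be technical. Named genes are the members, the genes of the GABA, glutamate and vesicle lists called by edgeR with all 47 libraries and no covariate, up to 3 genes per marker list, and the 3 genes most correlated with each member; some of these genes are not reported here. The members and lists were chosen with earlier results of these data known. Alternatives were log2 total counts as a covariate, DESeq2 1.42.0, its size factors in edgeR, library totals as the only scaling, no low-count filter, fits restricted to the groups of a contrast, a minimum of 500000 counts, all libraries kept, well column as a factor, barcode GC bases as a covariate, thinning to the shallowest library and leaving out each library in turn. Leaving out PFOS library 31, with and without the covariate, was chosen after seeing the data. The fit was also run on simulated counts in which libraries of a group shared the same expected share of each gene. These held neither a library like PFOS library 31 nor shifts in composition with depth, so they cannot bear on either.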

Additional observations from a re-analysis of the deposited data

How the results depend on the processing

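Values are log2 fold changes. Gad2 in PFOS against vehicle lost its call, from a main value of -1.06, with log2 total counts as a covariate (-0.66), with no filter on low counts (-1.06, adjusted p = 0.0730), with a minimum of 500000 counts (-1.04, adjusted p = 0.0693), with well column as a factor (-1.02, adjusted p = 0.0853), without PFOS library 31 (-0.89) and without it plus the covariate (-0.37). Leaving out 1 library in turn gave -1.23 to -0.89 (adjusted p 0.0155 to 0.112), called in 34 of 47 cases. Slc32a1 in the same comparison was called with DESeq2 (-0.61) and with barcode GC bases as a covariate (-0.60, adjusted p = 0.0351), and in 8 of 47 cases with 1 library left out, which ran from -0.67 to -0.46 (adjusted p 0.0377 to 0.134). All PFOS and vehicle libraries had the same barcode GC, so that covariate could not adjust the difference between them. Slc17a6 was called in a fit of only the groups compared, for the combination against vehicle (0.31, adjusted p = 0.0206) and against vancomycin (0.30, adjusted p = 0.0136), and without PFOS library 31 (0.30 in both). Leaving out 1 library in turn gave 0.26 to 0.33 (adjusted p 0.0201 to 0.216) and 0.27 to 0.33 (adjusted p 0.0226 to 0.216), and library 31 was the only one whose removal made the call.

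Signs turned only among values that were not called. With the covariate they turned for Gad1 against vehicle in vancomycin (-0.032) and the combination (-0.063) and for Gad1 in the combination against vancomycin (-0.031). They turned likewise for Gad2 in vancomycin (0.17) and the combination (0.23) against vehicle and in the combination against vancomycin (0.058), and for Slc17a6 in vancomycin against vehicle (0.041) and the combination against PFOS (0.032). Without library 31 and with the covariate, the turned values were -0.0045 for Gad1 and 0.21 for Gad2 in vancomycin against vehicle, 0.34 for Gad2 in the combination against vehicle, 0.12 for Gad2 in the combination against vancomycin, and, for Slc17a6, 0.0034 in vancomycin against vehicle, 0.15 in the combination against PFOS and 0.15 in the interaction. Without library 31 alone they were 0.053 for Gad1 in PFOS against vehicle, and 0.15 for Slc17a6 in the combination against PFOS and in the interaction. Thinning gave -0.14 for Gad1 and 0.0024 for Slc17a6 in vancomycin against vehicle. In that comparison Slc17a6 was 0.0056 with a minimum of 500000 counts, 0.00055 with all libraries kept and 0.0036 with the well column. In the combination against PFOS it was 0.0029 with library totals only and 0.0061 with the well column, and in the interaction 0.012 and 0.0025. With 1 library left out, signs turned within ranges of -0.13 to 0.053 for Gad1 in PFOS against vehicle, -0.018 to 0.15 for Gad1 and -0.038 to 0.024 for Slc17a6 in vancomycin against vehicle, -0.069 to 0.15 for Slc17a6 in the combination against PFOS and -0.067 to 0.15 in the interaction. The cause was not tested.

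The number of genes called in PFOS against vehicle, 288 as reported, was 2 with the covariate, 165 with no filter, 158 with a minimum of 500000 counts, 169 with the well column and 67 after thinning. In the combination against vehicle, 537 as reported, it was 52 with the covariate, 356 with no filter, 259 with a minimum of 500000 counts, 299 with barcode GC bases and 256 after thinning. In the combination against vancomycin, 516 as reported, it was 121 with the covariate, 340 with no filter, 299 with a minimum of 500000 counts, 329 with barcode GC bases and 253 after thinning. Barcode GC varied only among combination libraries, so its fits in effect rest on the combination libraries whose barcode GC matched the other groups. Gad2 passed the filter neither after thinning nor in fits of only the groups compared, and Slc32a1 not after thinning. No paired analysis was possible because each hypothalamus group has its own library numbers, shared with no other hypothalamus group. Gad2 rests on medians of 4 to 9.5 counts per library, and Slc32a1 on medians of 9 to 21.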
